A study of Mus musculus with 4 samples.

Results

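The mitochondrial carriers of the SLC25 family were examined in RNA-seq data of regulatory T (Treg) cells stimulated with thymic stromal lymphopoietin (TSLP). The members were the genes listed as Slc25a followed by a number, except for 1 gene that was left out by the rule and was not analysed here, and they came to 46 of the 24418 genes listed. Treg cells sorted from spleens and lymph nodes of Foxp3YFP-Cre mice aged 8 to 12 weeks were cultured with 100 ng/mL TSLP or with PBS for 3 h, and each group had 2 samples (PBS 1, PBS 2, TSLP 1 and TSLP 2). All samples thus carried the same allele, in which a yellow fluorescent protein and the Cre recombinase are expressed from the Foxp3 locus. The labels did not state whether the 2 samples of a group came from separate animals, so the p-values measure the spread between these samples only, which may be technical. TSLP is an epithelial cytokine that signals through its receptor on lymphocytes, and the comparison asks how Treg transcripts differed after a short exposure to it. PBS 1 had 11328132 reads on genes, PBS 2 had 10724392, TSLP 1 had 11761234 and TSLP 2 had 10271571, and no reads on a gene in a library allow up to 3 reads, for counting error only.

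Carriers of this family lie mostly in the inner mitochondrial membrane and exchange small molecules between the cytosol and the mitochondrial matrix. ADP, ATP, phosphate, citrate, aspartate, several cofactors and iron pass in this way, so the carriers link respiration with biosynthesis in the cytosol. They are encoded in the nucleus, made in the cytosol and inserted into the membrane by dedicated import machinery. T cells use these routes when they move between rest and growth.

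The labelled cell type was checked with marker genes. Foxp3, the lineage factor of Treg cells, had a normalized count (reads divided by the size factor of the library) of 2437 and 5068 in PBS 1 and PBS 2, and of 4507 and 5041 in TSLP 1 and TSLP 2. Ctla4, Il2ra, Ikzf2, Cd4 and Cd3e were read at 2548 to 14097 normalized counts in every library. Markers of other lymphoid and blood cells were low beside these. The CD8 T cell genes Cd8a and Cd8b1 were at up to 31.0 and 116, and the B cell genes Cd79a and Cd79b were at up to 43.0 and 90.9, with Ms4a1 read in PBS 2 alone. The 4 haemoglobin genes of the erythroid list were at 0 in all libraries, and Alas2 had 3 and 7 reads in TSLP 1 and TSLP 2 and none with PBS. PBS 1 stood apart from the other libraries, with the lowest Foxp3 of the 4 and with more genes at an extreme value. Over the 11392 genes tested, PBS 1 alone was the lowest library for 34.0% and the highest for 32.4%, whereas each of the other libraries was lowest for 20.0% to 22.2% and highest for 20.8% to 23.4%. For this reason, several of the values below are also given without PBS 1.

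Reads were found for 39 of the 46 members. The other 7, Slc25a21, Slc25a31, Slc25a34, Slc25a41, Slc25a43, Slc25a48 and Slc25a54, were at 0 in every library. Slc25a18, a glutamate carrier, had 0, 8, 18 and 0 reads in PBS 1, PBS 2, TSLP 1 and TSLP 2 and did not reach the minimum for testing, a normalized count of 10 in at least 2 libraries. The remaining 38 members were tested. Levels of different genes were compared as normalized counts per kb of exon, with exon lengths from the GENCODE annotation of mm10.

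Slc25a3, the phosphate carrier that supplies phosphate for ATP synthesis, was by far the most abundant member. Its level per kb was 3633 and 2518 in PBS 1 and PBS 2, and 2698 and 2604 in TSLP 1 and TSLP 2, above 99.3% of the 13378 genes with a read and a known exon length. It alone made up 59.2%, 50.6%, 53.2% and 52.5% of the summed normalized counts of the family in these libraries. Slc25a5, an ADP/ATP carrier, was second with levels per kb of 1840, 1159, 1308 and 1251. Its paralog Slc25a4 came next, with 296, 371, 331 and 384, so that the lowest value of Slc25a5 was above the highest of Slc25a4. These first 2 places were the same in each library taken alone.

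Among the members below these, the levels were close. Slc25a38, which brings glycine into mitochondria for haem synthesis, had a mean level per kb of 230, and Slc25a11, the oxoglutarate/malate carrier, had 227. Slc25a1, which exports citrate for the synthesis of fatty acids and sterols, had 165, and Slc25a51, which carries NAD+, had 140. Slc25a25, an ATP-Mg/phosphate carrier, had 131 and Slc25a28, an iron carrier, had 125. Neighbours in this order overlapped over the 4 libraries. With these exon lengths, every value of Slc25a38 was above every value of Slc25a1, Slc25a51, Slc25a25 and Slc25a28. With the exon lengths of the basic transcript set, chosen after seeing the data, Slc25a28 ranked 6 instead of 10 and overlapped with Slc25a38, which ranked 5. The median over the 38 members tested was 58.5 per kb, against 75.9 over all genes tested with a known length.

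**Figure D1:**
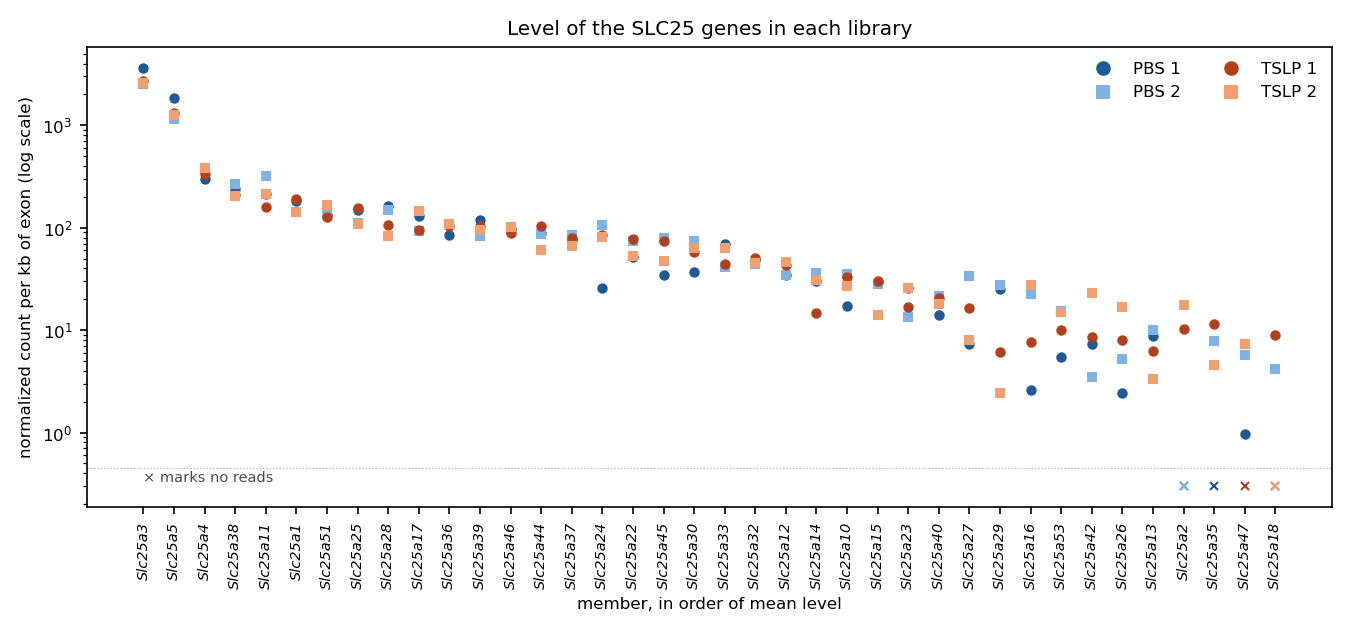
Normalized count per kb of exon (log scale) of the SLC25 genes with a read, 38 of 39 shown, in order of their mean level, with 1 symbol per library and crosses for libraries with no reads. Slc25a3 and Slc25a5 stand above all other members in every library, and the spread between libraries widens among the members of low level on the right.

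As a share of all reads on genes, the family took 0.310% and 0.257% in PBS 1 and PBS 2, and 0.254% and 0.256% in TSLP 1 and TSLP 2. The higher value of PBS 1 came with its higher reads for Slc25a3, since the shares without this gene were 0.127%, 0.127%, 0.119% and 0.122%. Without Slc25a3, both TSLP shares lay below both PBS shares, a difference with 2 libraries a group that was not tested.

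No member differed between TSLP and PBS after adjustment. By limma with Benjamini-Hochberg adjustment, 0 of the 38 members had an adjusted p under 0.05 (0.0% of all 11392 genes tested had one), and the smallest adjusted p of the members was 0.9999. Before adjustment, 2 members had a p under 0.05, Slc25a28 and Slc25a29, against 1.69% of all genes (192). On the reads recovered from the values, edgeR gave an unadjusted p under 0.05 for 3 members, these 2 and Slc25a2, which reached the minimum for testing with TSLP only, against 2.05% of all genes, and 0 at an adjusted p under 0.05. DESeq2 gave 3 members, against 234 of all genes, and 0 at an adjusted p under 0.05. Of the 38 fold changes, 22 were above 0 and 16 below, and the median log2 fold change of TSLP against PBS was 0.03 for the members and 0.01 for all genes. Without PBS 1, the median of the members was -0.12 and that of all genes was -0.01. The members with an unadjusted p under 0.05 by limma were then Slc25a2 and Slc25a11, against 2.31% of all genes, and Slc25a28 and Slc25a29 had 0.0786 and 0.0660.

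Both TSLP libraries were above both PBS libraries in 4 members (Slc25a2, Slc25a12, Slc25a26 and Slc25a42), where 14.5% of all genes showed this. Both were below in 5 members (Slc25a11, Slc25a13, Slc25a28, Slc25a29 and Slc25a38), where 14.4% of all genes showed this. More than 2-fold differences were seen in 5 members, against 12.3% of all genes, and all 5 had a mean normalized count under 150. In 30 of the 38 members, the larger log2 ratio between replicates exceeded the log2 fold change in size. The same count was not made over all genes, so it says nothing particular about the family. An exact permutation test of 2 against 2 samples cannot give a two-sided p below 0.333, so none was used for single members. The median width of the 95% confidence interval of the log2 fold change was 1.73, and in 16 members the interval lay within a 2-fold change in either direction. For the other 22 members, the interval did not exclude a 2-fold difference.

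**Figure D2:**
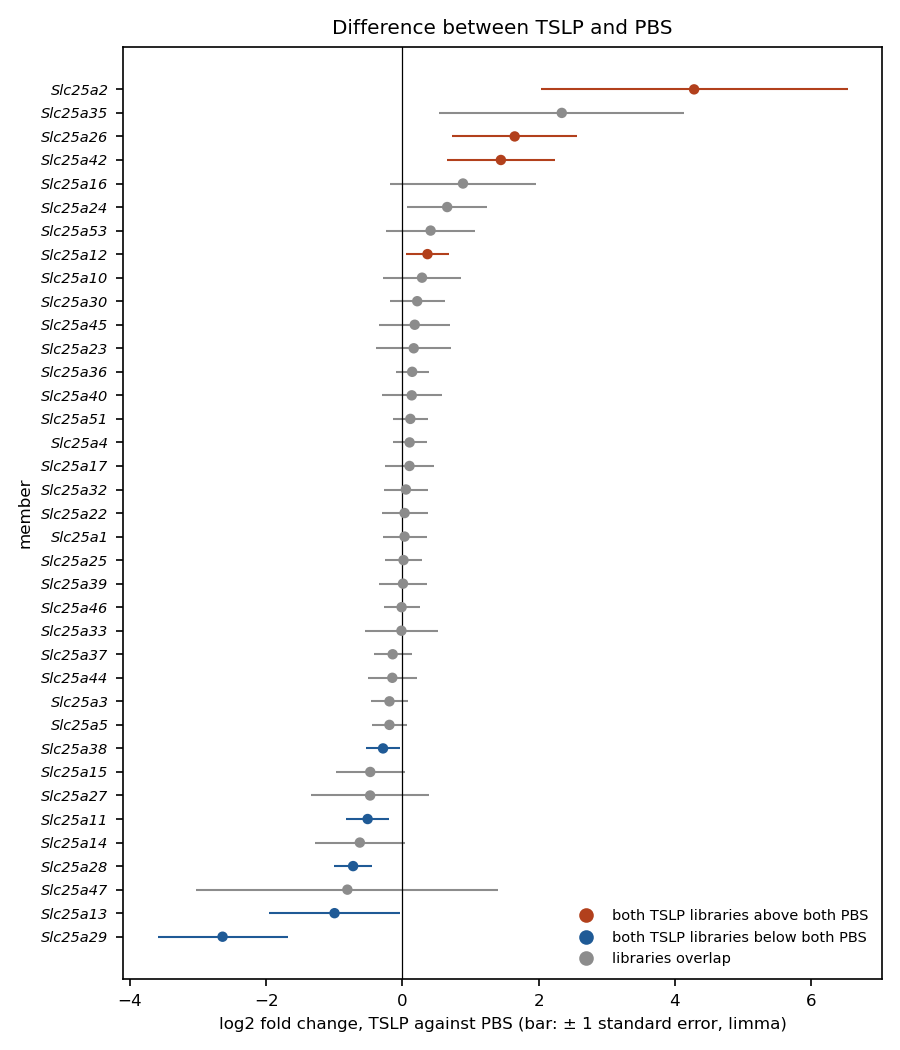
Log2 fold change of TSLP against PBS (horizontal axis) of the SLC25 genes tested, 37 of 38 shown, with bars of 1 standard error from limma; colours mark members whose groups did not overlap. Most points lie near 0, Slc25a29 lies farthest to the left, and the points far to the right are genes of few reads, of which Slc25a2 has no reads with PBS, so that its position depends on the pseudocount.

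The depth of a member went with the size of its fold change. The 21 members with a mean normalized count of at least 200 had a median absolute log2 fold change of 0.14, and the 17 members under 200 had 0.63. The corresponding medians for all genes were 0.18 and 0.55. Among the members of at least 200, Slc25a28 had the largest absolute value and Slc25a24 the second largest, 0.66.

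With all 4 libraries, an iron carrier and an amino acid carrier had the lowest p-values among the members. Slc25a28 (ENSMUSG00000040414.8, chr19:43663801-43674881, minus strand, mm10), or mitoferrin 2, brings iron into mitochondria outside the red cell lineage. Slc25a29 (ENSMUSG00000021265.3, chr12:108825873-108835883, minus strand, mm10) carries basic amino acids such as arginine and lysine. The stretches before the start of each gene are shown because these are the members with an unadjusted p under 0.05 and because both hold a CCAAT box, a promoter element bound by NF-Y. They are from RefSeq (build GRCm38.p6), run 5′ to 3′ on the strand of the gene, hold no exon, and have CCAAT or its reverse complement ATTGG in capitals.
Slc25a28, chr19:43674882-43675131, minus strand: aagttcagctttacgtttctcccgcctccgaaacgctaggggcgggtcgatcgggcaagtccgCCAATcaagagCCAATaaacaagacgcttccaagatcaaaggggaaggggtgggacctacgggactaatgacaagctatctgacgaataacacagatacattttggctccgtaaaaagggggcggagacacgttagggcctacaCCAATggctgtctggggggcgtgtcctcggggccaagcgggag
Slc25a29, chr12:108835884-108836045, minus strand: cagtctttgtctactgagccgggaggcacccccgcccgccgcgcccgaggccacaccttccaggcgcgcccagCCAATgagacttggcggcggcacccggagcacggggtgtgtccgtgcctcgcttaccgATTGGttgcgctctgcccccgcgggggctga
The stretch of Slc25a29 is shorter because the parts of its window that overlap annotated exons were cut away. These exons belong to Slc25a29 itself and to the divergent gene Slc25a47. The motif counts used the whole 250 bases before the gene start, with annotated exons included. Over the 35 members with a RefSeq window, CCAAT on either strand was found in 18 (51.4%), against 37.5% of 27025 genes. The STAT motif TTCNNNGAA, which the factors activated by TSLP bind, was found in 2 members (5.71%), Slc25a36 and Slc25a54, against 8.13% of all genes. The E-box CACGTG was found in 7 members (20.0%), against 6.86% of all genes. The NRF1 motif and the letters AAGATGGC (YY1) and TCAAGGTCA (ERR) were in no member window, against 0.877%, 1.83% and 0.422% of all genes. These are matches of letters on either strand, and no binding was measured.

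Slc25a28 had normalized counts of 604 and 560 in PBS 1 and PBS 2, and of 396 and 312 in TSLP 1 and TSLP 2. Both TSLP libraries were below both PBS libraries, and the gap between the groups was wider than that within either. With PBS the mean was 582 ± 30.8 (SD, n = 2), and with TSLP it was 354 ± 58.8 (SD, n = 2), a log2 fold change of -0.72 (limma, standard error 0.28, unadjusted p = 0.0307, Benjamini-Hochberg adjusted p = 0.9999). With any single library left out, the log2 fold change was between -0.89 and -0.55. The paralog Slc25a37, or mitoferrin 1, which serves iron import for haem in red cell precursors, had normalized counts of 457, 506, 473 and 400 in PBS 1, PBS 2, TSLP 1 and TSLP 2, and its groups overlapped. The share of Slc25a28 in the level per kb of both mitoferrins was accordingly 68.0% and 64.0% with PBS and 57.3% and 55.6% with TSLP. Slc25a39 and Slc25a40, the glutathione carriers, had log2 fold changes of 0.01 (standard error 0.35) and 0.14 (standard error 0.44), and Slc25a39 made up 79.4% to 89.4% of their level per kb.

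Slc25a29 was read 67 times in PBS 1, 72 times in PBS 2, 17 times in TSLP 1 and 6 times in TSLP 2. All 4 numbers were small, but those with TSLP were well below those with PBS. With PBS the mean normalized count was 68.5 ± 5.02 (SD, n = 2), and with TSLP it was 11.1 ± 6.89 (SD, n = 2), a log2 fold change of -2.64 (limma, standard error 0.95, unadjusted p = 0.0218, Benjamini-Hochberg adjusted p = 0.9999). Leaving out any single library gave values between -3.25 and -2.03. At the stricter minimum of a normalized count of 50, which it reached with PBS only, its unadjusted p was 0.0600 (limma). By edgeR with a replicate block, chosen after seeing the data, the unadjusted p of Slc25a29 was 0.0746, against 0.0398 by edgeR without the block. Neither Slc25a28 nor Slc25a29 shared any run of 50 bases, the read length, with the transcripts of another gene.

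Markers of myeloid cells were measured beside these members. Cd68, the most abundant of that list, had normalized counts of 169, 66.0, 55.6 and 16.7 in PBS 1, PBS 2, TSLP 1 and TSLP 2, and Itgam had 22.3, 19.0, 3.77 and 7.32. In both genes the TSLP libraries were below the PBS libraries. The 5 markers together came to 17.6, 11.9, 8.59 and 8.76 cpm (reads on genes rescaled to a common library total). Of the 3 that were tested, 0 had an unadjusted p under 0.05 (limma), and Lyz2 had normalized counts of 0.969, 43.0, 34.9 and 41.8, with PBS 1 near 0 and PBS 2 above both TSLP libraries. Adgre1 was at 0 in every library, and Csf1r had at most 1 read except for 27 in TSLP 2. The study enriched CD4+ T cells of Foxp3YFP-Cre mice with magnetic beads and labelled them for CD4 and with a dye for dead cells. Treg cells were then sorted from these with a cell sorter. The part of myeloid cells in the values of Slc25a28 and Slc25a29 was not tested. In bulk samples, fewer cells of a type and less RNA per cell cannot be told apart.

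Among the other amino acid carriers, Slc25a2, an ornithine carrier encoded by a single exon, had reads with TSLP and none with PBS. It had 0 reads in both PBS libraries, 15 in TSLP 1 and 23 in TSLP 2. Set against the limit of 3 reads in each PBS library, its mean with TSLP was at least 6.46-fold higher. Without TSLP 2 the bound was 4.78-fold and without TSLP 1 it was 8.14-fold. The limit covers counting error only and not the spread between libraries of a group. Slc25a18, for example, had 18 and 0 reads in TSLP 1 and TSLP 2. Since Slc25a2 reached the minimum for testing with TSLP only, its p-values are not given as support. Its paralog Slc25a15, the main ornithine carrier of the urea cycle, had normalized counts of 165, 160, 171 and 79.4 in PBS 1, PBS 2, TSLP 1 and TSLP 2. Only TSLP 2 was low, and the log2 fold change of Slc25a15 without this library was 0.08, against -0.47 with all.

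Slc25a38, the glycine carrier, had normalized counts of 655, 732, 575 and 562 in the same order. The groups did not overlap, and the log2 fold change was -0.28 (limma, standard error 0.25, unadjusted p = 0.282). Slc25a22, the glutamate carrier read in every library, had 311, 445, 462 and 314, with a high and a low library in each group. Slc25a44, which carries branched-chain amino acids, had 318, 309, 369 and 216. Of the 6 amino acid carriers tested, 2 had a log2 fold change above 0 and 4 below, and their median was -0.22.

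**Figure D3:**
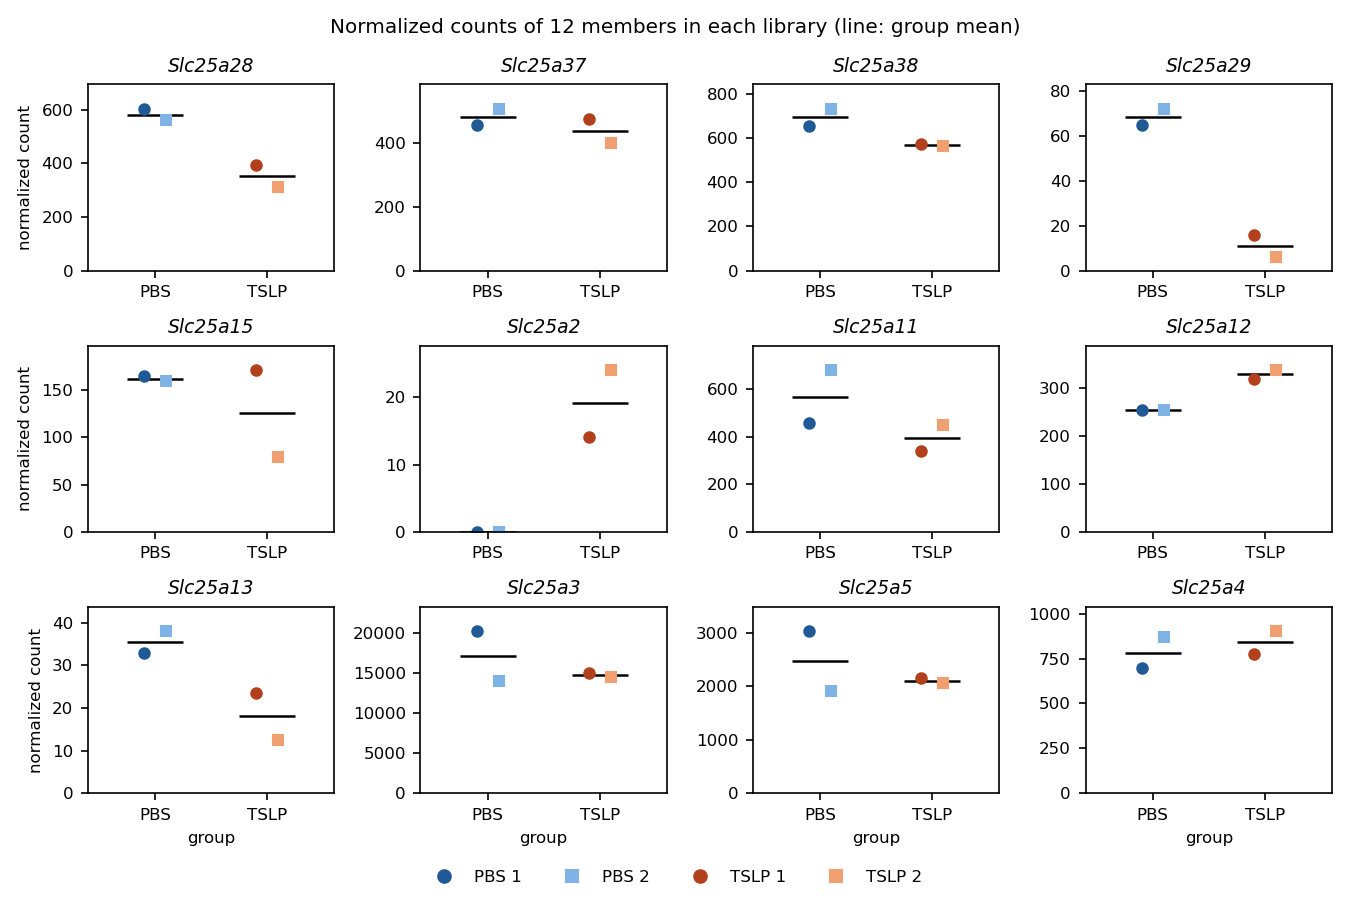
Normalized counts (vertical axes, each from 0) of 12 SLC25 genes in the PBS and TSLP groups, with 1 symbol per library and a line at the group mean. The groups do not overlap for Slc25a28, Slc25a38, Slc25a29, Slc25a2, Slc25a11, Slc25a12 and Slc25a13, whereas for Slc25a3 and Slc25a5 PBS 1 lies above the other 3 libraries.

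The carriers of ADP, ATP and phosphate were set apart mainly in PBS 1. Slc25a3 had normalized counts of 20163 and 13977 in PBS 1 and PBS 2, and of 14972 and 14452 in TSLP 1 and TSLP 2. Its log2 fold change was -0.19 (limma, standard error 0.28, unadjusted p = 0.511) with a 95% confidence interval of -0.82 to 0.44. Without PBS 1 it was 0.07, and without PBS 2 it was -0.45. Slc25a5 had 3029, 1907, 2153 and 2059 in the same order, a log2 fold change of -0.19 (95% confidence interval -0.78 to 0.40) that became 0.14 without PBS 1. Of the 50-base runs of Slc25a5 transcripts, 33.8% also occurred in 9 other genes, all with pseudogene transcripts, so its reads could be split between copies. Slc25a4, the ADP/ATP carrier of heart and muscle, had 696, 872, 778 and 903, and its groups overlapped. The share of Slc25a5 in the level per kb of the ADP/ATP carriers was 86.2% in PBS 1 and 75.8%, 79.8% and 76.5% in PBS 2, TSLP 1 and TSLP 2.

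The 3 ATP-Mg/phosphate carriers tested, which adjust the adenine nucleotide content of the matrix in response to calcium, had log2 fold changes above 0, and none had an unadjusted p under 0.05. Slc25a25 led the set with normalized counts of 1163, 881, 1238 and 847 in PBS 1, PBS 2, TSLP 1 and TSLP 2. Replicate 1 was the higher in each group, and the log2 fold change was 0.02 (95% confidence interval -0.60 to 0.63). Slc25a24 had 89.2, 366, 293 and 279, so that PBS 1 alone was low. Its log2 fold change was 0.66 with all libraries and -0.36 without PBS 1. Slc25a23 had 137, 71.0, 89.5 and 137, and its groups overlapped.

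Of the 5 carriers of citrate, dicarboxylates and aspartate tested, 3 had groups that did not overlap, and 28.9% of all genes had such groups in either direction. Slc25a11, which exchanges oxoglutarate for malate, had normalized counts of 457, 681, 341 and 448. The lower PBS library was close to the higher TSLP library, and the log2 fold change was -0.51 (limma, standard error 0.31, unadjusted p = 0.138). Without PBS 1 it was -0.80 (unadjusted p = 0.0475, limma), and without PBS 2 it was -0.22. Slc25a12 and Slc25a13 are paralogs that export aspartate in the malate-aspartate shuttle and lay in opposite directions. Slc25a12 had 255, 255, 320 and 339, and Slc25a13 had 33.0, 38.02, 23.6 and 12.5. Their log2 fold changes were 0.37 (limma, standard error 0.32, unadjusted p = 0.276) and -0.997 (limma, standard error 0.97, unadjusted p = 0.328). The share of Slc25a12 in their level per kb was 80.0% and 77.6% with PBS and 87.6% and 93.3% with TSLP. Slc25a1, the citrate carrier, had 398, 306, 412 and 309, again higher in replicate 1 of each group, with a log2 fold change of 0.03 (95% confidence interval -0.70 to 0.76). Slc25a10, the dicarboxylate carrier, had 59.1, 121, 114 and 94.1.

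**Figure D4:**
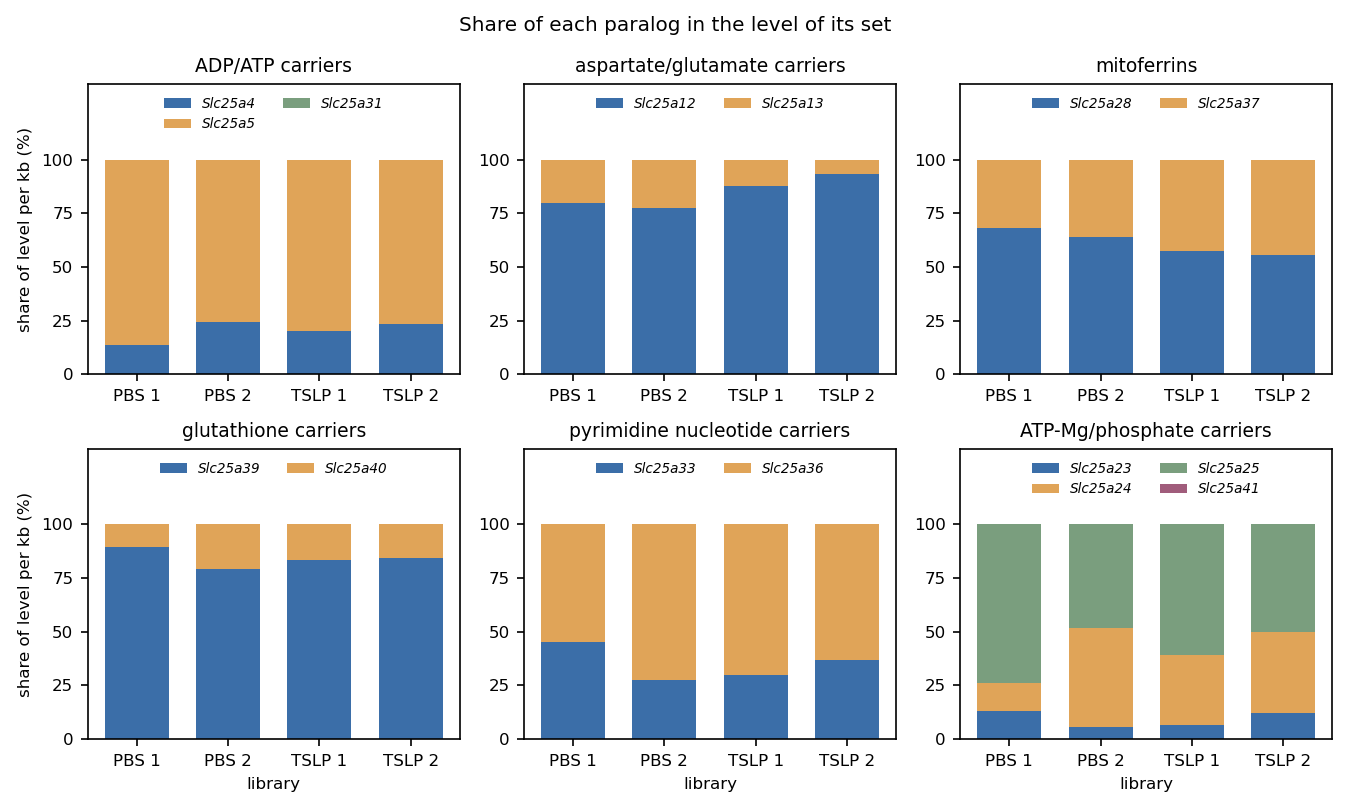
Share of each paralog in the level per kb of 6 sets of SLC25 genes (vertical axis, %), with 1 stacked bar per library. Slc25a12 and Slc25a37 take a larger share with TSLP than with PBS in all libraries, and PBS 1 departs from the other libraries in the ADP/ATP and ATP-Mg/phosphate carriers.

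The 9 carriers of nucleotides, coenzymes and vitamins were all tested, with 7 log2 fold changes above 0, 2 below and a median of 0.12. None of the 9 had an unadjusted p under 0.05 (limma). Slc25a26, which imports S-adenosylmethionine, the methyl donor, had normalized counts of 11.6, 25.01, 38.6 and 80.5 in PBS 1, PBS 2, TSLP 1 and TSLP 2, and Slc25a42, which carries coenzyme A, had 43.6, 21.01, 51.8 and 137. In both genes the TSLP libraries were above the PBS libraries, with TSLP 2 far above TSLP 1. The log2 fold change of Slc25a26 was 1.65 (limma, standard error 0.92, unadjusted p = 0.106), and that of Slc25a42 was 1.45 (limma, standard error 0.79, unadjusted p = 0.100). With a library left out they ranged from 1.13 (without PBS 1) to 2.17 for Slc25a26 and from 0.75 (without TSLP 2) to 2.14 for Slc25a42. Slc25a16 had 12.6, 108, 36.7 and 134, with replicate 2 the higher in each group, and its log2 fold change was 0.89 with all libraries and -0.61 without PBS 1. Slc25a51 had 729, 746, 694 and 921, and its groups overlapped. The pyrimidine nucleotide carriers differed in level, with Slc25a36 at 54.7% to 72.6% of the level per kb of the pair and Slc25a33 at the rest. Slc25a32, linked to folate and FAD, and Slc25a17, which lies in peroxisomes, had log2 fold changes of 0.05 and 0.10.

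The relatives of the uncoupling proteins were read at low to middling counts. Slc25a30 had normalized counts of 170, 335, 263 and 293, Slc25a14 had 71.7, 86.0, 34.9 and 73.2, and Slc25a27 had 29.1, 134, 64.1 and 31.4. No group was set apart in these 3 genes. Ucp2, an uncoupling protein of the same family under another symbol, was at 4032, 3442, 3685 and 3954, with a log2 fold change of 0.03 (standard error 0.22). Ucp3 was at 0 in every library, and Ucp1 had 0, 7, 5 and 0 reads.

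Of the 5 tested members with no role assigned here, Slc25a46, an outer membrane protein involved in mitochondrial shape, was the most even, with 524, 512, 480 and 551 normalized counts. Slc25a35 had 0, 29.0, 42.4 and 16.7, and 928 of its 3705 runs of 50 bases occurred in other genes, chiefly in Rangrf on the opposite strand. Its log2 fold change was 2.34 by limma and 1.02 by edgeR, and without PBS 1, where it had no reads, it was -0.11 by limma. Whether the counting used the strand of the reads was not given in the sources used here. Slc25a47 had 3, 17, 0 and 21 reads, with a low and a high library in each group. Slc25a45 had 94.99, 220, 204 and 132, and Slc25a53 had 43.6, 122, 80.1 and 119.

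The variation of the members between replicates was measured in the same way for all libraries. Between PBS 1 and PBS 2 the median absolute log2 ratio of the 38 members was 0.50 (1.42-fold), and between TSLP 1 and TSLP 2 it was 0.46 (1.38-fold). The medians of all genes tested were 0.48 and 0.31. PBS 1 was the lowest library for 14 of the 38 members and the highest for 6, and PBS 2 was the highest for 14. Over all genes tested, PBS 1 was the lowest library for 34.0% and the highest for 32.4%, and PBS 2 was the highest for 23.3%. Over the members, the median absolute log2 ratio of a library to the mean of the other 3 was 0.48 for PBS 1, 0.40 for PBS 2, 0.32 for TSLP 1 and 0.34 for TSLP 2, and over the 10946 tested genes with an exon length it was 0.44, 0.29, 0.26 and 0.29.

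**Figure D5:**
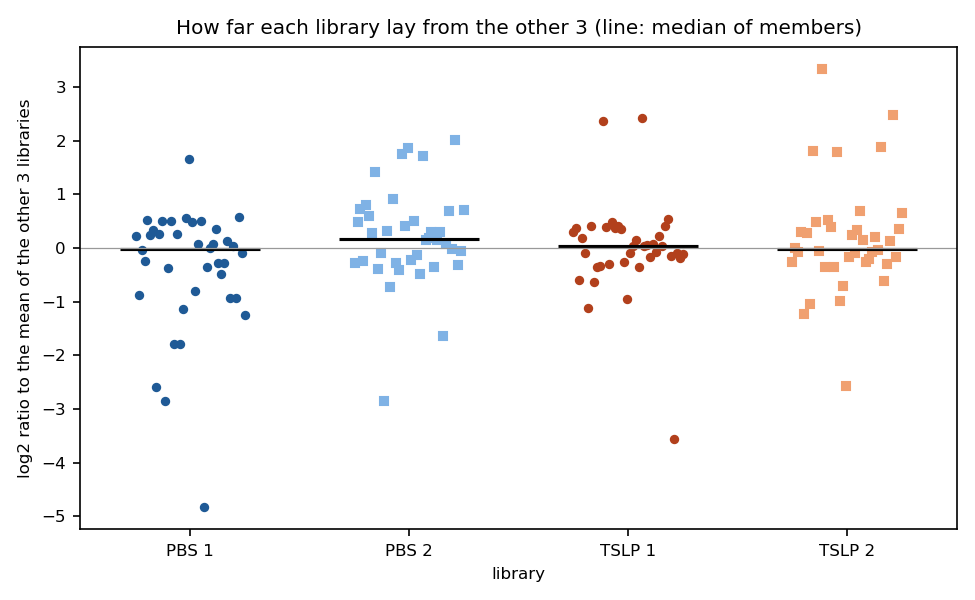
Log2 ratio of each of the 38 SLC25 genes tested (points) in a library to the mean log2 value of the other 3 libraries, with a line at the median. Medians are near 0 in all libraries (-0.02, 0.18, 0.04 and -0.02 from left to right), and 7 members lie below -1 in PBS 1, against 2, 2 and 3 in PBS 2, TSLP 1 and TSLP 2.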

How the data were processed

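Per the labels, total RNA was made into libraries with a directional kit. The authors mapped 50-base single-end reads to mm10 with HISAT2, counted them per gene with HTSeq and divided the counts by a size factor per library. The deposited values are therefore a signal, the normalized count, and 100% of them were whole reads within 0.01 after division by the step of the library. The annotation and strand setting were not given in the sources used here, and 27 gene names had turned into dates.

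TSLP was compared with PBS by limma 3.58.1 (R 4.3.3) on log2(normalized count + 1), for the 11392 genes that reached a normalized count of 10 in 2 or more libraries, with Benjamini-Hochberg adjustment. This scale shrinks the fold changes of genes with few reads, but where 1 replicate is at or near 0 the fold can exceed that of the group means. edgeR 4.0.16 (quasi-likelihood test, TMM) and DESeq2 1.42.0 served as alternatives on the recovered reads, and the fits were tested on simulated data. In the simulation all genes had the same spread beyond counting error and no library stood apart, so it does not cover a library such as PBS 1. Other scalings, pseudocounts and filters, a replicate block, removal of the trend over exon length and leaving out each library were also tried. Exon lengths were unions over the transcripts of GENCODE M21, found for all 46 members. Levels, fold changes and intervals were computed per gene, and the 95% interval used the degrees of freedom of limma.

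The members, their role groups, the marker lists and the tests were chosen with earlier results of these data known. Members named were the 10 highest per kb, the 5 highest and 5 lowest fold changes, those with an unadjusted p under 0.05, paralog sets and members at or under 3 reads, and others within their role group. Promoter motifs were chosen after the values were seen. The values of 1 member, which is included in the counts and medians, are not reported here.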

Additional observations from a re-analysis of the deposited data

How the results depend on the processing

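The count of 0 members at an adjusted p under 0.05 was the same in all 15 other settings. The count at an unadjusted p under 0.05 was 2 by limma, against 192 of all genes. It was 3 with no filter on low values (with Slc25a2), against 358, and 1 with the filter at 50 (Slc25a28), against 193. With edgeR and the replicate block, a setting chosen after seeing the data, it was 1 (Slc25a28), against 215. It ranged from 0 to 5 when a library was left out, a fit in which the lone sample is assumed to vary like the other group. It was 2 without PBS 1 (Slc25a2 and Slc25a11, in place of Slc25a28 and Slc25a29), 5 without PBS 2 (Slc25a2, Slc25a3, Slc25a5, Slc25a24 and Slc25a35, against 1858 of all genes), 1 without TSLP 1 (Slc25a29) and 0 without TSLP 2. Over all genes, the count was also lower without TSLP 1 and without TSLP 2 than with all libraries, and higher without PBS 1 and without PBS 2. The lower member counts without a TSLP library were thus not particular to the family. The median log2 fold change of the members ranged from -0.12 (without PBS 1) to 0.046. With the replicate block in limma the count stayed at 2 members and moved from 192 to 258 over all genes. In the main fit, samples of the same number were not treated as paired, and the labels did not state whether they were. Their deviations from the group means correlated with r = 0.0007 over 11392 genes and 0.0931 over 2716 genes of at least 1000. With 2 samples per group and PBS 1 apart from the rest, these values cannot show whether the samples were paired.

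Of the 30 named members tested, 12 kept their sign under every alternative, among them Slc25a11, Slc25a12, Slc25a13, Slc25a28, Slc25a29 and Slc25a38. The groups of these named members did not overlap, so leaving out a library could not have turned their sign. With removal of the trend over exon length, the log2 fold change was -0.000931 for Slc25a22, -0.072 for Slc25a25 and 0.13 for Slc25a33. Slc25a39 was at -0.017 with edgeR and -0.016 with DESeq2, and Slc25a47 at 0.13 and 0.14. In 18 members the sign turned when a library was left out. The ranges were -0.17 to 0.24 for Slc25a1, -0.45 to 0.074 for Slc25a3, -0.058 to 0.27 for Slc25a4, -0.52 to 0.14 for Slc25a5, -1.02 to 0.078 for Slc25a15, -0.61 to 2.39 for Slc25a16, -0.25 to 0.31 for Slc25a22, -0.30 to 0.63 for Slc25a23, -0.36 to 1.67 for Slc25a24, -0.26 to 0.29 for Slc25a25, -0.27 to 0.71 for Slc25a30, -0.39 to 0.36 for Slc25a33, -0.11 to 4.79 for Slc25a35, -0.046 to 0.33 for Slc25a36, -0.26 to 0.27 for Slc25a39, -0.16 to 0.43 for Slc25a40, -3.07 to 1.45 for Slc25a47 and -0.087 to 0.32 for Slc25a51. Without a turn of sign, the range was -0.80 to -0.22 for Slc25a11, -1.43 to -0.57 for Slc25a13, -1.15 to -0.10 for Slc25a14 and -0.26 to -0.02 for Slc25a37. The causes were not tested. Of the 10 highest members per kb, 8 were also among the 10 highest by normalized count, and 9 with the exon lengths of the basic transcript set, chosen after seeing the data. With 2 libraries per group and few reads on many members, the intervals excluded a 2-fold difference in 16 of 38 members.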

Other observations

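The machinery that inserts these carriers into the inner membrane was read in every library. All 12 genes of its list found among the gene names were tested, 0 had an unadjusted p under 0.05 (limma), 4 had a log2 fold change above 0 and 8 below, and their median was -0.19, against 0.01 for all genes. In a repeat with each library left out, added after seeing the data, these counts turned without PBS 1, when 8 were above 0 and 4 below with a median of 0.11. Timm10b, a small chaperone of the space between the membranes, had normalized counts of 169, 150, 35.8 and 103 in PBS 1, PBS 2, TSLP 1 and TSLP 2, with both TSLP libraries the lower (log2 fold change -1.37, standard error 0.61, unadjusted p = 0.0527, limma). Timm9, its partner, lay the other way at 83.4, 59.0, 107 and 162 (log2 fold change 0.90, standard error 0.54, unadjusted p = 0.128, limma). Timm13 and Timm22 had their highest value in PBS 1, 807 and 240 against at most 467 and 133 in the other libraries.

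Of 8 other pores and carriers of mitochondria, 0 had an unadjusted p under 0.05 (limma), 1 had a log2 fold change above 0 and 7 below, with a median of -0.07. Without PBS 1 there were 4 above 0 and 4 below (median 0.03), and without TSLP 2 there were 5 above 0 and 3 below (median 0.08). Sfxn3, a sideroflexin, had normalized counts of 882, 1009, 735 and 642, with both TSLP libraries below both PBS libraries (log2 fold change -0.46, standard error 0.24, unadjusted p = 0.0903, limma). Vdac2, a channel of the outer membrane, had 1156, 871, 1088 and 860, and was the higher in replicate 1 of each group. Mpc1, a subunit of the pyruvate carrier, had 76, 0, 14 and 50 reads. Its log2 fold change of 1.67 was the one above 0 with all libraries, although its mean normalized count was 36.8 with PBS and 32.7 with TSLP.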
